A study of Mus musculus with 6 samples.

Results

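The genes described here are 10 components of the type of matrix that fills cartilage. They are the type II, IX and XI collagen genes Col2a1, Col9a1, Col9a2, Col9a3, Col11a1 and Col11a2, the aggrecan gene Acan, its link protein gene Hapln1, and Chad and Comp, which encode chondroadherin and cartilage oligomeric matrix protein. They were chosen by name, all 10 were found among the 17091 symbols of the deposited table, and none was removed for low values. The libraries came from dissected lateral walls of the cochlea of inbred CBA/CaJ mice, 3 of them young (2 months) and 3 old (2.5 years). No mouse carried a labelled transgene or received a labelled treatment, and each library pooled both cochleas of 1 mouse, so the spread is that between mice. From its title, the study asks what changes at the molecular level as the lateral wall ages.

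Cartilage matrix is a composite of thin fibrils and a water-binding gel. Type II collagen forms the body of the fibril, type XI collagen lies in its core and limits its width, and type IX collagen decorates its surface. Aggrecan is a large proteoglycan that binds to hyaluronan, and link protein locks the 2 together. In the inner ear the same collagens are also found outside true cartilage, in the spiral ligament of the lateral wall and in the tectorial membrane, and inherited defects of type II and type XI collagen cause hearing loss. The otic capsule, the bony shell to which the spiral ligament is attached, forms from cartilage.

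The coding sequences show what sets the 6 collagens apart from each other and from the other 4 genes. Collagen chains wind into a triple helix because glycine occupies the first place of each group of 3 residues, so that a glycine codon (GGN) opens each group of 3 codons. The lines below give the first 99 bases of the longest unbroken run of such groups in a type II, a type XI and a type IX gene, 5′ to 3′, from the longest complete coding sequence of each gene in GENCODE M21, with the glycine codons in capitals.
Col2a1, coding bases 601 to 699: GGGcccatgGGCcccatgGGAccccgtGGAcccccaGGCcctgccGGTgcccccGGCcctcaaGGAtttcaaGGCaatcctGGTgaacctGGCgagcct
Col11a1, coding bases 1579 to 1677: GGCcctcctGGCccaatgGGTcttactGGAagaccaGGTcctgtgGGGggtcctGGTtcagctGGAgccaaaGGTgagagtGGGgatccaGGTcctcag
Col9a1, coding bases 1252 to 1350: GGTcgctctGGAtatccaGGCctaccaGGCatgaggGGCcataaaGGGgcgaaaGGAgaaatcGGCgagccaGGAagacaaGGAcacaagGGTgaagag
The run held 339 groups in Col2a1 and 338 in each of Col11a1 and Col11a2, which form fibrils. It held 113 groups in each of Col9a1, Col9a2 and Col9a3, whose helices are short and interrupted. Acan, Hapln1, Chad and Comp had 0 runs of 10 or more groups.

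The libraries were of similar depth, with 37055355 to 39103398 recovered reads. The tissue and title labels name the lateral wall, while the source label names auditory nerve cells. Coch, which encodes cochlin, the main noncollagenous protein of spiral ligament fibrocytes, stood at 725083 to 821557 normalised read counts in the young libraries. Xist, transcribed from the inactive X chromosome, stood at 24382 to 29162 in 5 libraries and at 45.2 in old replicate 3, and each member's fold change without that library is given beside the one with it. In bulk tissue, fewer cells of a type and less RNA per cell cannot be told apart.

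Transcripts of some of the cartilage-type matrix genes were lower in old lateral wall. Of the 10 members, 6 fell and 0 rose at a limma adjusted p under 0.05, where 2.55% of all 17091 genes were called lower and 2.71% higher. The 6 were Col2a1, Col11a1, Col11a2, Col9a2, Acan and Chad. In the same 6 genes each old library lay below each young library, which held for 12.8% of all genes in that direction. The median log2 fold change of the members was −0.80, against −0.00 over all genes, and 9 of 10 values were below 0. Col2a1, Col11a1 and Acan had the lowest values and kept their calls when any 1 library was left out. Without old replicate 3, Col2a1, Col11a1, Col11a2 and Acan were called, where 2.07% of all genes were called lower.

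Which members passed depended on the method and on single libraries. The 6 were also called lower by edgeR on the recovered reads (2.33% of all genes), by DESeq2 (5.03%) and in the authors' deposited table (5.03%). Without young replicate 1, 2 or 3, only Col2a1, Col11a1 and Acan were called, where 1.53%, 0.667% and 0.532% of all genes were lower. Without old replicate 1, Chad joined these 3 on the lower side (1.95% of all genes), and without old replicate 2 there were 8 (3.39%). With quantile normalisation (2.39% of all genes) or a correction for GC content and exon length (2.73%), Col2a1, Col11a1, Acan and Chad were called. With the replicate number as a block (1.03%), or without trend and robust variance (129 of 17091 genes), Col2a1, Col11a1 and Acan were. With a score of nerve markers as covariate 2 members were called, where 0.655% of all genes were lower. With a score of blood and marrow markers 0 were, where 0.164% of all genes were lower. That score, a mean, was higher in every old library than in any young one. In limma, 5.25% of all genes were called in either direction.

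**Figure D1:**
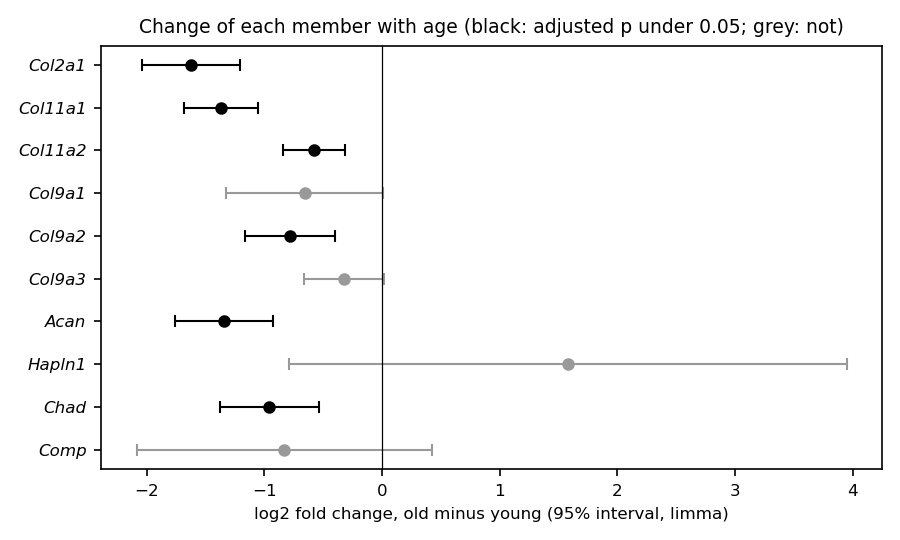
Log2 fold change of each of the 10 genes (x axis, limma, log2(value + 1), negative where old is lower) with its 95% interval. Black points passed an adjusted p under 0.05 and grey points did not. The intervals of Col2a1, Col11a1, Col11a2, Col9a2, Acan and Chad lie below 0, that of Acan ending at −0.92. That of Hapln1 spans −0.79 to 3.95.

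Col2a1 encodes the only chain of type II collagen and lies on chromosome 15 from 97975602 to 98004695 on the minus strand (GRCm38). It stood at 3821, 2562 and 2717 normalised read counts in young replicates 1, 2 and 3, and at 816, 1180.1 and 943 in old replicates 1, 2 and 3. The lowest young library was more than 2-fold above the highest old one, and young replicate 1 stood above the other young libraries. The mean fell from 3033 ± 686 to 979.7 ± 185 (SD, n = 3 each). The fitted difference was −1.62 ± 0.18 on the log2 scale (SE, here and below; limma adjusted p = 0.00277), and −1.60 without old replicate 3.

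Col11a1 and Col11a2 encode 2 chains of type XI collagen, whose remaining chain is a product of Col2a1. Col11a1 lies on chromosome 3 from 114030540 to 114220718 and Col11a2 on chromosome 17 from 34039437 to 34066685, both on the plus strand. Col11a1 stood at 2989.9, 3159 and 3015 in the young and at 1466, 1115 and 1012 in the old replicates 1, 2 and 3. The young libraries lay close together and each old library was below 50% of their mean. Its log2 fold change was −1.37 ± 0.14 (limma adjusted p = 0.00168), and −1.26 without old replicate 3. Col11a2 stood at 46592, 49285 and 50554 in the young and at 31432, 37731 and 29585 in the old libraries, again without overlap. Its fall was smaller, at −0.58 ± 0.12 on the log2 scale (limma adjusted p = 0.0268), and −0.50 without old replicate 3 (0.0462). The call of Col11a2 was lost without any 1 of the young libraries or without old replicate 1 (limma adjusted p up to 0.133). It was also lost with a correction for GC content and exon length, where the log2 fold change was −0.35 (limma adjusted p = 0.186).

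**Figure D2:**
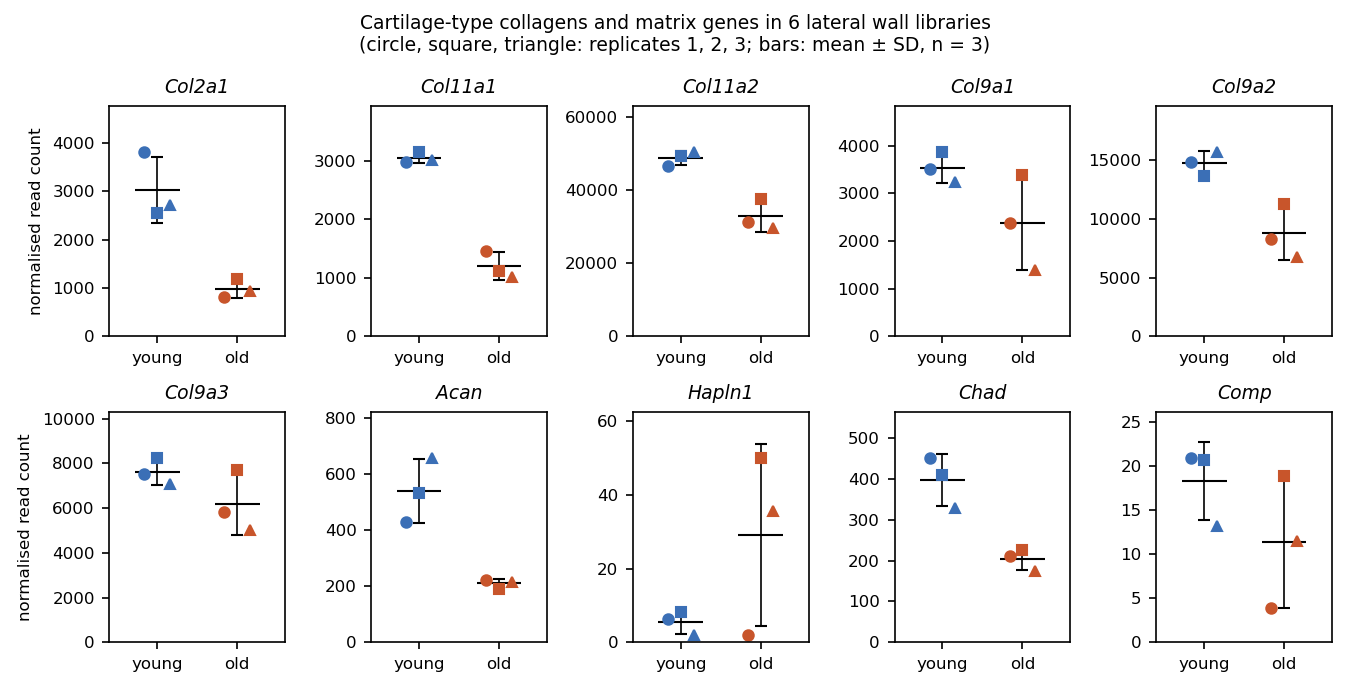
Normalised read counts (y axis, linear from 0, a scale of its own for each gene) of the 10 genes in the 3 young (blue) and 3 old (orange) libraries. Symbols mark replicates 1, 2 and 3, and bars give the mean ± SD. Col2a1, Col11a1, Col11a2, Col9a2, Acan and Chad show groups that do not overlap.

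The 3 chains of type IX collagen are encoded by Col9a1 (chromosome 1, 24177610 to 24252684), Col9a2 (chromosome 4, 121039385 to 121055322) and Col9a3 (chromosome 2, 180597790 to 180622189), all on the plus strand. Col9a2 stood at 14822, 13708 and 15740.0 in young replicates 1, 2 and 3, and at 8292, 11247 and 6799 in old replicates 1, 2 and 3. The groups did not overlap, and the log2 fold change was −0.78 ± 0.17 (limma adjusted p = 0.0342). Col9a1 stood at 3506, 3874 and 3246 in the young and at 2379, 3385 and 1399 in the old libraries. Col9a3 stood at 7525, 8255 and 7081 in the young and at 5839, 7689.8 and 5023 in the old libraries. In both genes old replicate 2 lay inside the young range. Neither passed the test, with log2 fold changes of −0.66 (95% interval −1.32 to 0.01) for Col9a1 and −0.32 (−0.66 to 0.02) for Col9a3 and limma adjusted p of 0.243 and 0.26.

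The result for type IX collagen turned on which libraries were included. The Col9a2 call was also lost with quantile normalisation, replicate block or GC and length correction (limma adjusted p of 0.0609 to 0.0685). Without old replicate 2, all 3 genes were called, with log2 fold changes of −0.95 for Col9a1, −0.97 for Col9a2 and −0.49 for Col9a3 (limma adjusted p of 0.04, 0.0024 and 0.0352). Without any 1 of the other libraries, none of the 3 was called. Without old replicate 3 the values were −0.32, −0.61 and −0.18.

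The old libraries kept 1 order in the type IX genes, highest in replicate 2 and lowest in replicate 3, and Col11a2, Chad and the fibrocyte marker Coch had the same order. Replicate 2 was the highest old library in 8 of the 10 members, Col2a1 among them. Relative to the young mean, Col9a1 stood at 67.2%, 95.6% and 39.5% in old replicates 1, 2 and 3, and Coch at 55.6%, 92.4% and 40.9%. Coch itself had a log2 fold change of −0.75 ± 0.26 and did not pass the test (limma adjusted p = 0.148). Without old replicate 2 it was −1.07 and Coch was called (limma adjusted p = 0.0045). Of 7 fibrocyte markers, 1 fell (Otos, the otospiralin gene, −1.71 ± 0.20, limma adjusted p = 0.00321), 0 rose, and the list's median was −0.53. All 7 log2 fold changes were below 0. Their summed level ranged from 1019180 to 1147160 in the young and from 435532 to 937014 in the old libraries, with no marker at 0. The part of fibrocyte number in the collagen values was not tested.

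**Figure D3:**
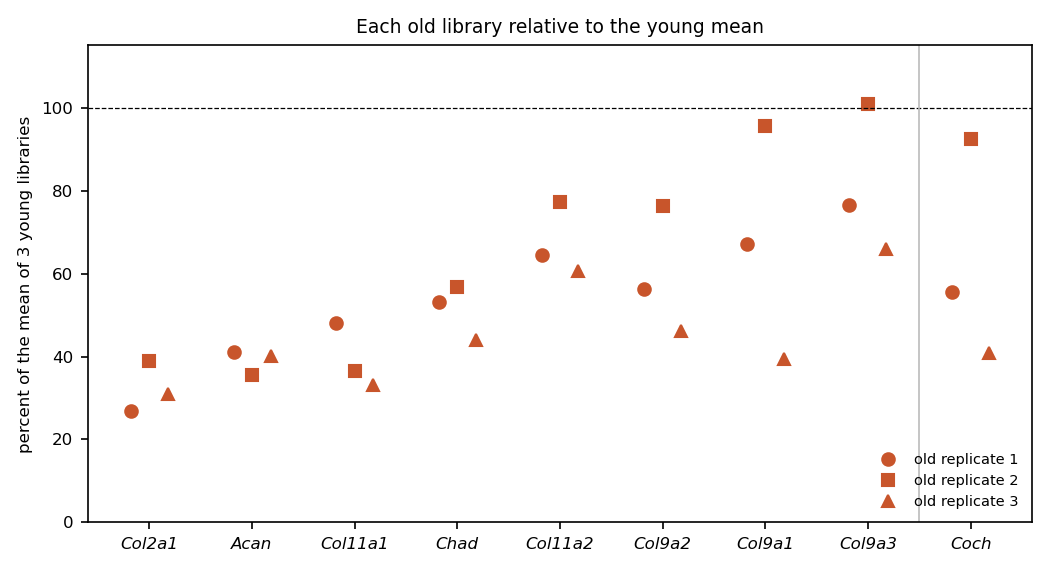
Level of each old library (y axis, percent of the mean of the 3 young libraries, dashed line at 100) for 8 of the genes and for the fibrocyte marker Coch, set apart on the right. Old replicate 2 lies highest in each gene shown except Acan and Col11a1. Col2a1, Acan and Col11a1 lie below 50% in all 3 old libraries.

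Acan encodes the core protein of aggrecan, the proteoglycan whose charged side chains hold water in the matrix, and lies on chromosome 7 from 79053483 to 79115099 on the plus strand. It stood at 431, 534 and 659.6 normalised read counts in young replicates 1, 2 and 3, and at 222, 192 and 217 in old replicates 1, 2 and 3. The old libraries were close together, and all lay well below the lowest young library. The log2 fold change was −1.34 ± 0.19 (limma adjusted p = 0.0059), and −1.37 without old replicate 3.

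Hapln1 encodes link protein and was the 1 member with a value above 0. It lies on chromosome 13 from 89539796 to 89611652 on the plus strand. It stood at 6.29, 8.30 and 2.04 in the young libraries and at 1.94, 50.1 and 35.5 in old replicates 1, 2 and 3, which are 6, 8, 2, 2, 53 and 37 reads. Old replicates 2 and 3 were high, and old replicate 1 held as few reads as the lowest young library. The log2 fold change of 1.58 ± 1.04 did not pass the test (limma adjusted p = 0.432). Without old replicate 1 it was 2.87 and was called (limma adjusted p = 0.0299), and without old replicate 3 it was 1.05.

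Markers of nerve were high in the same 2 old libraries. Nefl, a neurofilament gene, stood at 49.4, 815 and 889.7 in old replicates 1, 2 and 3 and at 12.3 to 58.1 in the young libraries. Hapln4, a link protein gene named here after its value was seen, stood at 36.8, 135 and 160.5 in the old libraries, against 19.7 ± 7.30 in the young (SD, n = 3). Over the list of 10 nerve and glia markers, the mean log2 difference from the young libraries was 0.0135, 2.42 and 2.45 in old replicates 1, 2 and 3, and no marker was at 0. With a nerve score as covariate the log2 fold change of Hapln1 was −1.06 (limma adjusted p = 0.518), and Col2a1 and Col11a1 were the members called, where 0.655% of all genes were called lower. Acan was then at −1.19 (limma adjusted p = 0.0699). The nerve score was chosen after seeing the data, and the part of nerve tissue in the Hapln1 values was not tested.

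**Figure D4:**
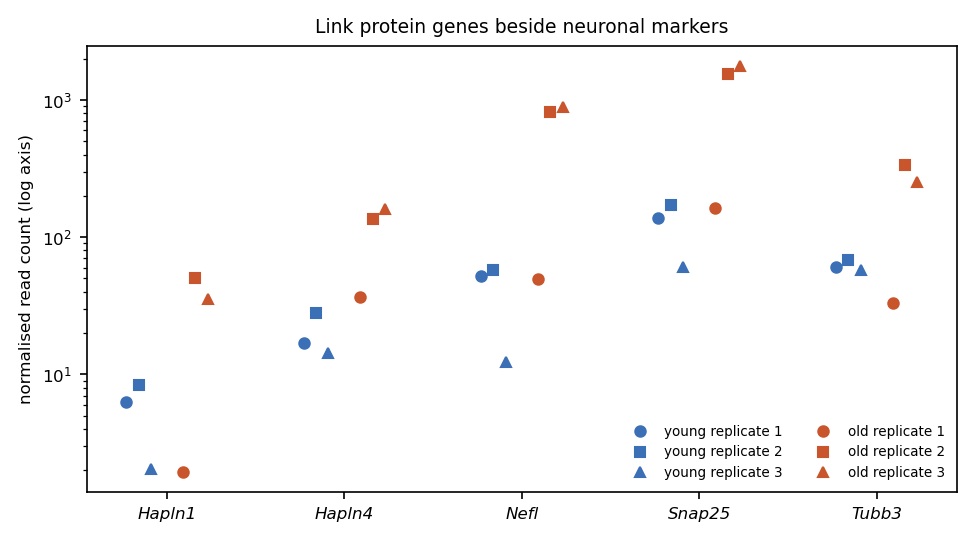
Normalised read counts (y axis, log scale) of the link protein genes Hapln1 and Hapln4 and of the neuronal genes Nefl, Snap25 and Tubb3 in each young (blue) and old (orange) library. In all 5 genes old replicates 2 and 3 are the highest libraries, and old replicate 1 lies far below both.

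Chad and Comp encode proteins that join collagen fibrils to other matrix molecules and to cells. Chad, on chromosome 11 from 94565047 to 94569127 on the plus strand, stood at 451, 409.7 and 328 in the young and at 210.4, 225 and 174 in the old libraries. The groups did not overlap, and the log2 fold change was −0.96 ± 0.19 (limma adjusted p = 0.0222). The call was lost without any 1 young library (limma adjusted p up to 0.0983) and without old replicate 3 (−0.85, limma adjusted p = 0.0544). Chad lies within the span of Acsf2 on the opposite strand without shared exon bases, and Acsf2 stood at 157 to 210.5 over the 6 libraries. Without stated strand, reads of the 2 genes cannot be told apart with certainty. Comp, on chromosome 8 from 70373558 to 70382066 on the plus strand, stood at 21.0, 20.7 and 13.3 in the young and at 3.88, 18.9 and 11.5 in the old libraries. The groups overlapped, and the log2 fold change of −0.83 ± 0.56 did not pass the test (limma adjusted p = 0.439), and it was −0.94 without old replicate 3. Col9a3 shares 234 exon bases with Tcfl5 on the opposite strand, which stood at 108 to 224.

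The members differed in level by several orders of magnitude. Per kilobase of annotated exon, Col11a2 was highest in young mice, at 7101 ± 294 normalised reads per kilobase (SD, n = 3), above 99.1% of genes. Col9a2 (4768 ± 329), Col9a3 (1978 ± 154) and Col9a1 (699 ± 62.3) followed, and the range of each lay apart from that of the next. Col2a1 stood at 328 ± 74.3, Col11a1 at 239.7 ± 7.17 and Chad at 236 ± 37.4, and the ranges of Col11a1 and Chad overlapped. Acan (72.5 ± 15.3), Comp (6.18 ± 1.48) and Hapln1 (0.94 ± 0.54) were lowest. In old mice the first 4 places were the same, and Col2a1, Chad and Col11a1 stood at 106 ± 19.98, 121 ± 15.7 and 94.0 ± 18.7.

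The balance between 2 members, among them chains of the same fibril, was compared within each library, over 10 pairs. With 3 against 3 libraries the smallest p of the exact permutation test is 0.1, so no pair could pass, and the smallest adjusted p was 0.25. The ratio of Col2a1 to Col11a2 per kilobase was 0.0610, 0.0387 and 0.0400 in the young and 0.0193, 0.0233 and 0.0237 in the old libraries. The ratio of Col11a1 to Col11a2 was 0.0346, 0.0346 and 0.0322 in the young and 0.0252, 0.0159 and 0.0184 in the old libraries. Both ratios were lower in each old library than in any young one, by 1.05 and 0.79 on the log2 scale (exact two-sided permutation p = 0.1 for each). Among the others, the ratio of Col2a1 to Col11a1 had means of 1.37 ± 0.34 in the young and 1.17 ± 0.36 in old replicates (SD, n = 3 each), and the groups overlapped (exact two-sided permutation p = 0.6). That of Col2a1 to Col9a1 also overlapped, with a log2 difference of −0.97 (exact two-sided permutation p = 0.2). Within type IX, the ratio of Col9a2 to Col9a3 was 2.45, 2.07 and 2.77 in the young and 1.77, 1.82 and 1.68 in the old libraries, without overlap (exact two-sided permutation p = 0.1). The ratio of Col9a1 to Col9a3 also did not overlap and was lower in old mice, by a log2 difference of −0.33 (exact permutation p = 0.1), whereas that of Col9a1 to Col9a2 overlapped and differed by 0.12 (exact permutation p = 0.6). Aggrecan and link protein transcripts stood at a ratio of 50.9 to 255 in the young libraries, 90.5 in old replicate 1, and 3.03 and 4.83 in the remaining old libraries.

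The bases before the start of transcription in RefSeq were searched because Col11a1 and Acan fell together. RefSeq promoters on GRCm38.p6 matched 7 of the members with 8 windows of 250 bases. For Acan, Col11a2, Col9a2 and Hapln1 the windows do not end at the GENCODE gene start given above. That of Acan ends at 79053225, and the GENCODE start is 79053483. Col9a1 had 2 of these windows, and Col2a1, Col9a3 and Comp had none, so the counts below do not cover them. Both sequences are shown 5′ to 3′ on the plus strand, with GGGCGG, a core that Sp1-type factors bind, in capitals on either strand (CCGCCC on the other), where matches that overlap run on.
Col11a1, chr3:114030290-114030539: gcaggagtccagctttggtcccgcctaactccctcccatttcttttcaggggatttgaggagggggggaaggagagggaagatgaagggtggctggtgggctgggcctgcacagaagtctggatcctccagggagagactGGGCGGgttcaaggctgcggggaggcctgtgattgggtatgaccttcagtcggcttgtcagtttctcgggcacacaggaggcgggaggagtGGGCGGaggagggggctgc
Acan, chr7:79052976-79053225: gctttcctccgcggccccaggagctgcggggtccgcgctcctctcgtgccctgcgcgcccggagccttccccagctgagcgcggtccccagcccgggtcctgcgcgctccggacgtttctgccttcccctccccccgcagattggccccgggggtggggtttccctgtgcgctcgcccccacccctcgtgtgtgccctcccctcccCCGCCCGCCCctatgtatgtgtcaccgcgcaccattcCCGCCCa
GGGCGG was found on either strand in 5 of 8 member windows and in 32.7% of 32851 windows of that length. These 5 windows had a GC content of 57.6% to 74.4%, and the other member windows 43.6% to 56%. The median over all windows was 52.4%, and the counts were not corrected for GC content. TATAAA was found in 2 of the 8 windows, those of Chad and Col11a2, and in 12.4% of all. ACAAAG and ACAATG, which SOX factors bind, were found in 0 of the 8 windows and in 16.5% and 10.7% of all. A match is a run of letters and not a measured binding site.

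The genes that make, bind and break down this matrix were described as 8 lists with 119 measured genes beside the members, of which 22 fell and 0 rose (limma adjusted p under 0.05), where 2.55% of all genes were lower and 2.71% higher. The 22 include 3 fibrillar collagens of types I, III and V. Of 13 chondrocyte transcription factor genes 0 were called by limma, edgeR or DESeq2, and at an unadjusted limma p under 0.05 there were 1 higher and 3 lower. Sox9, which switches on Col2a1 and Acan in chondrocytes, stood at 3226, 4913 and 4062 in the young and at 3214, 3359.8 and 1975 in the old libraries. The groups overlapped, and its log2 fold change was −0.53 (95% interval −1.05 to −0.01, limma adjusted p = 0.224). Its partners Sox5 and Sox6 had values of 0.09 and 0.44 (limma adjusted p of 0.844 and 0.19). Among 17 other cartilage matrix genes 1 fell by limma, Cilp2 (−1.36 ± 0.24, limma adjusted p = 0.0149), and 0 rose. That call was lost without young replicate 2 or 3 (limma adjusted p up to 0.074). In the same list edgeR called 1 lower and DESeq2 4 lower, with 0 higher in either. At an unadjusted limma p under 0.05 there were 2 higher and 5 lower. The matrilin genes Matn1 and Matn4 had −1.04 and −0.40 and did not pass (limma adjusted p of 0.346 and 0.209).

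Enzymes that build the sulfated side chains of aggrecan and process procollagen included genes called by limma, all of them lower. Of 20 genes of chondroitin and keratan sulfate synthesis, 5 fell and 0 rose by limma. By edgeR 4 were lower and 0 higher, and by DESeq2 7 were lower and 1 higher. At an unadjusted limma p under 0.05 there were 9 lower and 1 higher. Chst11, a chondroitin 4-sulfotransferase gene, fell from 14034 ± 364 to 7729 ± 1559 (log2 fold change −0.88 ± 0.14, limma adjusted p = 0.00922), and the polymerising factor genes Chpf and Chpf2 fell by 0.69 and 0.52 on the log2 scale. Chst1, of keratan sulfate synthesis, fell by 1.39. Of 25 genes of procollagen processing and secretion, 6 fell. They included Adamts2 (−1.60 ± 0.20) and Bmp1 (−0.82 ± 0.12), which cut the ends off procollagens, and the cross-linking enzyme genes Lox (−1.30 ± 0.20) and Loxl2 (−1.35 ± 0.24). The calls of Chst11 and Chpf were lost without young replicate 3 (limma adjusted p of 0.0535 and 0.0545), that of Loxl2 without young replicate 1 or 3 (up to 0.0827), and those of Chst1 and Chpf2 in 3 and 4 such runs (up to 0.118 and 0.166).

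Of 8 collagen receptor genes, 2 fell. Itga10, the chain of the integrin that binds type II collagen on chondrocytes, stood at 2935, 3621 and 3795 in the young and at 1787, 1982 and 1956 in the old libraries (log2 fold change −0.85 ± 0.12, limma adjusted p = 0.0059). Itga11 fell by 1.65 ± 0.31, a call lost without any 1 young library (limma adjusted p up to 0.0934), and Ddr2, a receptor kinase for fibrillar collagen, had −0.15 (limma adjusted p = 0.602). Of 17 degrading enzymes and their inhibitors, 5 fell and 0 rose by limma, against 5 lower and 1 higher by edgeR and 7 lower and 2 higher by DESeq2. They included the inhibitor genes Timp4 (−1.62 ± 0.20) and Timp2 (−0.54 ± 0.09) and the protease genes Htra1 (−0.99 ± 0.14) and Mmp2 (−1.10 ± 0.20). The aggrecanase genes Adamts4 and Adamts5 had 0.11 and −0.94 and did not pass (limma adjusted p of 0.874 and 0.184). Mmp13, the collagenase that cuts type II collagen, stood at 8.17 to 19.9 in the young and at 35.9, 24.6 and 150.8 in the old libraries (1.86, limma adjusted p = 0.146). Its groups did not overlap, and it was called higher by DESeq2 (adjusted p = 0.0155) and in the authors' deposited table. Timp3, an inhibitor of aggrecanases, had −0.19. The calls of Timp2 and Mmp2 were each lost without single young libraries (limma adjusted p up to 0.0898 and 0.078). Among 13 hyalectan and hyaluronan genes 0 were called by limma (1 higher and 2 lower at an unadjusted p under 0.05), against 1 by edgeR and 2 by DESeq2.

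**Figure D5:**
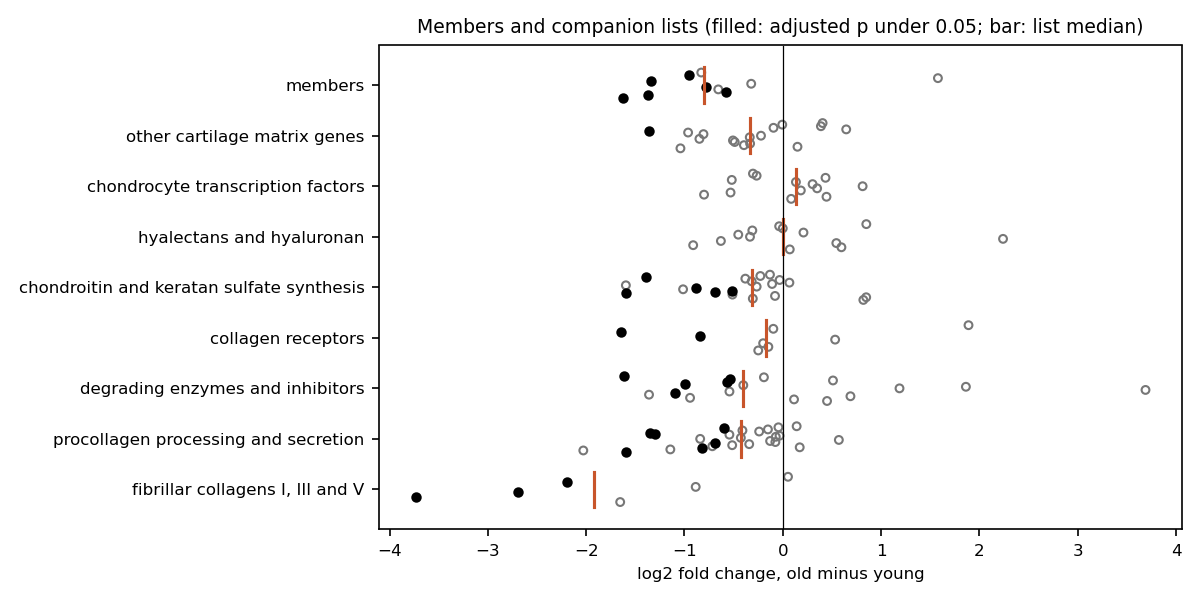
Log2 fold change (x axis, old minus young) of each measured gene of the 10 members and of 8 companion lists. Filled points passed a limma adjusted p under 0.05, open points did not, and vertical bars give list medians. All filled points lie below 0, and the median lies lowest for the fibrillar collagens I, III and V at −1.92.

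The list of fibrillar collagens that are not typical of cartilage was mixed. Of its 6 genes, 3 fell by limma, Col1a2 (−3.73 ± 0.30), Col3a1 (−2.70 ± 0.31) and Col5a2 (−2.19 ± 0.24). Col5a1, whose chain assembles with those of type XI collagen, had −0.89 and did not pass (limma adjusted p = 0.0619), but it was called lower with quantile normalisation, by DESeq2 (adjusted p = 0.00833) and in the authors' deposited table. Col1a1 had −1.65 and Col5a3 0.05 (limma adjusted p of 0.307 and 0.95), with overlapping groups. Whether these values differ from those of the members was not tested. Fmod is both in the cartilage matrix and in the tendon list, and Mmp8 both among the degrading enzymes and among the neutrophil markers.

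Markers of other cells that the dissection can hold also differed. Of 11 osteoblast and osteocyte markers 6 fell and 0 rose, and the list's mean log2 difference from the young libraries was −1.71, −1.498 and −1.53 in old replicates 1, 2 and 3. Their summed level ranged from 317309 to 371130 in the young and from 299776 to 364941 in the old libraries, with no marker at 0. That sum is mostly Spp1, whose mean was 337415 in young and 335146 in old mice. Phex and Dmp1 fell by 2.35 ± 0.24 and 1.26 ± 0.14. Of 7 tendon and fibrous tissue markers 3 fell and 0 rose, among them Tnmd (−4.02 ± 0.37), and their summed level ranged from 2239 to 2466 in the young and from 1279 to 1658 in the old libraries. Of 10 skeletal muscle markers 2 fell, and Myh1 was at 0 in all old libraries. Of 6 tectorial membrane markers 1 rose, Otog (0.78 ± 0.18, limma adjusted p = 0.0389, up to 0.135 without 1 library), and 0 fell. Tecta stood at 6.29 to 20.7 in the young and 1.92 to 5.67 in the old libraries (limma adjusted p = 0.162). Of 8 hair cell markers 0 were called by limma, edgeR or DESeq2, and 2 were lower at an unadjusted limma p under 0.05. The part of bone, tendon or muscle in the dissections in the member values was not tested.

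Blood and marrow transcripts were high in old replicates 1 and 3, the 2 old libraries with the lower type IX collagen values. The mean log2 excess over the young libraries was 3.39, 0.94 and 4.09 for markers of neutrophils and marrow in old replicates 1, 2 and 3, and 2.98, 0.47 and 3.64 for erythroid markers. The neutrophil list had 4 of 16 markers called higher and 0 lower (Csf3r, Lcn2, Padi4 and Elane, with log2 fold changes of 1.61, 2.78, 1.35 and 2.82). Each of these calls was lost without single libraries (limma adjusted p up to 0.126). All 16 were higher at an unadjusted limma p under 0.05, and edgeR and DESeq2 called 6 and 15 higher. The list's summed level ranged from 476 to 691 in the young and from 1144 to 12400.1 in the old libraries. Of 12 erythroid markers 0 were called by limma, 10 were higher at an unadjusted p under 0.05, and edgeR and DESeq2 called 4 and 9 higher. Their summed level ranged from 11643 to 13109.5 in the young and from 14665 to 53789.5 in the old libraries. Of 11 macrophage markers 9 rose and 0 fell, among them Itgax (5.85), Cd68 (2.15), Lyz2 (3.09) and C1qa (1.07), with sums of 7799 to 9294 in the young and 25296 to 35996 in the old libraries. With the mean of the neutrophil and erythroid lists as covariate, 0 of the 10 members were called by limma (3 were lower at an unadjusted p under 0.05), where 0.164% of all genes were called lower. Col2a1, Col11a1 and Acan then had log2 fold changes of −1.25, −1.39 and −1.55 (limma adjusted p of 0.0933, 0.0518 and 0.0734), whereas Col9a1, Col9a2 and Col9a3 had 0.26, −0.23 and 0.17. Blood and marrow content and age cannot be told apart in that fit, since each old library lies above each young one in the score.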

How the data were processed

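The deposited data are 1 table with 17091 symbols and 6 libraries. Each deposited value is a signal, namely reads per gene scaled by a library size factor, and division by the smallest step of a library gave whole reads (within 0.1) for 99.9% of the values. Per the file headers, 3 further columns give the authors' own comparison, namely p-values, false discovery rates (missing for 332 genes) and fold changes, written as a score with a sign. The submitters' processing notes name Partek, TopHat2, DESeq2 and the mm10 build. The annotation and whether reads were counted by strand are not given in the sources used here. Libraries were made with a TruSeq RNA kit, per the labels' protocols.

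Old and young libraries were compared with limma 3.58.1 (trend and robust variance, R 4.3.3) on log2(value + 1) of all 17091 genes, with Benjamini-Hochberg adjustment and a threshold of 0.05. No filter on low values was used. Fold changes on this scale understate the change of genes with few reads. Ratios of members were tested with an exact two-sided permutation test. Alternatives were edgeR 4.0.16 and DESeq2 1.42.0 on recovered reads, quantile normalisation, other pseudocounts (0.1 and 10), a mean of at least 10, limma without trend, the replicate number as a block, a correction for GC content and exon length, a blood and marrow score or a nerve score as covariate (the nerve score was chosen after seeing the data), leaving out each library, and a threshold of 0.01. The fits were tested on simulated data.

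Gene positions and exon lengths were taken from GENCODE M21 (GRCm38, equivalent to mm10), which matched 99.1% of the symbols. The rule for named genes took the 10 members, up to 4 called genes of each other list with the smallest p (not all of the marker genes are printed), 16 genes fixed by name, of which Has2 was not used here, and the 5 genes most like Col2a1. Other genes (Nefl, Snap25, Tubb3, Hapln4, Xist, Spp1, Col1a1, Col5a3, Ucma, Epyc, Cnmd, and the neighbours Acsf2 and Tcfl5) are named outside that rule, after their values were seen. A result on 1 gene of the nerve and glia list is not reported here. The members and lists were chosen with earlier results of these data known.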

Additional observations from a re-analysis of the deposited data

How the results depend on the processing

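Over 21 alternatives, Col2a1 and Col11a1 lost their call in 1 (the blood and marrow score), Acan in 2 (either score), Chad in 9, Col11a2 in 12 and Col9a2 in 13. The direction of each called member was the same in all 21. The number of members called lower, 6, was 3 without trend and robust variance, 3 with the replicate block, 3 at a threshold of 0.01, 2 with the nerve score and 0 with the blood and marrow score, and 3 to 8 when 1 library was left out. The number called higher, 0, was 1 without old replicate 1 and 0 in the other 5 such runs. With the blood and marrow score, Col9a1 (0.26), Col9a3 (0.17), Comp (0.20), Matn1 (0.19), Matn4 (0.0402), Ddr2 (0.0893) and Coch (0.16) changed sign, as did Hapln1 with the nerve score (−1.06), Sox5 without young replicate 2 (−0.15, up to 0.21 without 1 library) and Adamts4 with quantile normalisation (−0.15) or without old replicate 2 (−0.10, up to 0.30). The cause was not tested.

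Of all genes, 463 were called higher and 435 lower. The counts were 208 and 129 without trend, 230 and 176 with the replicate block, 184 and 166 with the block and the GC and length correction, 11 and 28 with the blood and marrow score, 148 and 112 with the nerve score, 119 and 91 at a threshold of 0.01, 976 and 843 with DESeq2, 975 and 843 in the authors' deposited table, and 139 to 554 and 91 to 580 without 1 library. Of the companion genes, 0 were called higher and 22 lower by limma. The number higher was 1 with the GC and length correction, 2 and 1 with edgeR (TMM and DESeq2 size factors), 4 with DESeq2, 4 in the authors' deposited table and 0 to 3 without 1 library. The number lower was 9 without trend, 1 with the blood and marrow score, 13 with the nerve score, 35 with DESeq2, 35 in the authors' deposited table, 11 at 0.01 and 9 to 32 without 1 library.

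The difference in log2 ratio changed sign for Col2a1 to Col11a1 without old replicate 1 (0.0229 against −0.26, −0.44 to 0.0229 without 1 library), for Comp to Chad without old replicate 2 (−0.24) or 3 (−0.10, against 0.13, up to 0.72) and for Col2a1 to Acan without young replicate 1 (0.0499 against −0.28, down to −0.50). The replicate numbers did not pair the samples: deviations of same-numbered young and old libraries correlated at −0.244, −0.0965 and −0.0879 over 13308 genes. Intervals cover the spread between 3 mice a group, and the reads of Hapln1 and Comp limit what can be seen for them.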

Other observations

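Among other cartilage genes, 3 were abundant and were chosen here after their values were seen. Ucma, which encodes a cartilage matrix protein rich in gamma-carboxyglutamate, stood at 27521, 27014 and 26315 normalised read counts in young replicates 1, 2 and 3 and at 16440.2, 20864 and 9783 in old replicates 1, 2 and 3. The groups did not overlap, yet the log2 fold change of −0.85 ± 0.24 did not pass the test (limma adjusted p = 0.09). Epyc, the gene of epiphycan, and Cnmd, the gene of chondromodulin, stood at 13217 to 19245 and 14920.2 to 20089 in the young libraries and at 7832 to 16004 and 10250 to 18324 in the old ones, with overlap.

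Over the 6 libraries, the 5 genes whose log2 values had the highest Pearson correlation with Col2a1, of 12793 genes compared, were Sycp3, Ergic1, Tmem132a, Rarres1 and Fam114a1 (r of 0.99 for each). Young and old libraries form separate groups, so these values rest largely on the difference between ages. The log2 fold changes were −0.49, −0.20, −0.66, −1.29 and −0.34, against −1.62 for Col2a1. Rarres1 stood at 949, 695 and 702 in the young and at 257, 427 and 287 in the old libraries.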
